A study of Mus musculus with 12 samples.

Results

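The snoRNA host and nuclear long noncoding RNAs were 8 genes, chosen by name: Gas5, Snhg1, Snhg3, Snhg5, Snhg8 and Snhg12, which carry small nucleolar RNAs (snoRNAs) in their introns, and Malat1 and Neat1, which stay in the nucleus. All 8 were found among the 24343 genes of the deposited tables, and all 8 passed the filter on low values described with the tests. RNA was measured in 12 libraries of HT22, an immortalized mouse line derived from hippocampus, with 3 biological replicates in each of 4 groups. Cells received by liposome either a control siRNA (siControl) or an siRNA against Ncoa4 (siNCOA4), and either no chelator or deferoxamine (DFO), an iron chelator, at 100 µM for 24 h. The cells of the siControl groups had thus also been transfected, and all groups were grown in medium with serum. NCOA4 is the receptor that delivers ferritin, the iron store of the cell, to lysosomes. Iron itself was not measured in these tables.

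The siRNA target behaved as labelled in every library. Ncoa4 stood at 6.02 to 6.46 FPKM in siControl, 0.770 to 0.952 in siNCOA4, 7.52 to 8.70 in DFO-treated siControl and 0.850 to 1.57 in DFO-treated siNCOA4 cells. By definition FPKM divide the sequenced fragments of a gene by its length in kilobases and by the library's mapped total. They are thus a level per length. How the total of each library was set for the deposited values is not given in the sources used here. Relative depth, read from the steps that 1 fragment makes in rarely detected genes, spanned 1.52-fold between libraries, while total fragments per library are unknown from these values. Genes of small RNAs held 31.1 to 35.6% of the summed FPKM without DFO, 37.9 to 41.4% in DFO-treated siControl and 43.9 to 47.7% in DFO-treated siNCOA4 cells. Of 13 neuron markers, 3 had a mean of at least 1 FPKM in each group (Tubb3, Syn1 and Eno2), and the other 10, Rbfox3 and Map2 among them, did not, although the cells are labelled as hippocampal neuron cells. The 13 summed to at most 19.3 FPKM in siControl, 13.1 to 15.5 in siNCOA4, 38.4 to 41.7 in DFO-treated siControl and 26.3 to 32.7 FPKM in DFO-treated siNCOA4 cells. All 5 fibroblast or mesenchymal markers were above 1 FPKM, and summed in the same order of groups to 2825 to 3236, 2096 to 2254, 1798 to 1868 and 1563 to 1698 FPKM. The 4 astrocyte markers summed to 36.4 to 46.0 FPKM in siControl, 22.5 to 26.7 in siNCOA4, 3.18 to 5.42 in DFO-treated siControl and 6.95 to 15.1 in DFO-treated siNCOA4 cells, and Olig2 of oligodendrocytes and P2ry12 of microglia were listed at 0. The neuron, astrocyte and mesenchymal sums moved with DFO, and without overlap all 3 were also lower with siNCOA4 alone than in siControl. Their part in the results was not tested. In bulk RNA, fewer cells of a kind and less RNA per cell cannot be told apart.

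A snoRNA host gene makes 2 products from 1 transcript. The introns are processed into snoRNAs, which guide the chemical modification of ribosomal and spliceosomal RNA, and the spliced exons leave the nucleus as a host RNA that often has little coding capacity. Several host RNAs, Gas5 foremost, begin with a run of pyrimidines (a 5′ terminal oligopyrimidine tract), are engaged by ribosomes on short reading frames and are degraded by nonsense-mediated decay, so that their steady level depends on translation as well as on transcription. Malat1 is an abundant RNA of nuclear speckles, where splicing factors gather. Neat1 is the scaffold around which paraspeckles assemble.

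The genes lie on 5 chromosomes of the mouse build GRCm38 (mm10), by RefSeq coordinates. Gas5 spans chr1:161034601-161038539 and Snhg1 spans chr19:8723487-8726326, both on the plus strand. Snhg3 spans chr4:132351933-132353686 on the minus strand and Snhg12 spans chr4:132308678-132311024 on the plus strand, 40908 bases apart. Snhg5 spans chr9:88521052-88522897 and Snhg8 spans chr3:123507552-123508336, both on the minus strand. Malat1, at chr19:5795690-5802672, and Neat1, at chr19:5824708-5845480, are 22035 bases apart on the minus strand.

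The first bases of the host RNAs are shown because the terminal pyrimidine run, a property of sequence that no expression value entered, sets some hosts apart from others. Each line holds 40 bases of the coding strand from RefSeq, 10 before the annotated start and 30 from it on, with the longest run of C or T in capitals.
Gas5, first start: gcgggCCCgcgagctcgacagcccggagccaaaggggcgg
Gas5, second start: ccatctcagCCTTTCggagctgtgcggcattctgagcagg
Snhg8: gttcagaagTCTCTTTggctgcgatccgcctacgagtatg
Snhg12: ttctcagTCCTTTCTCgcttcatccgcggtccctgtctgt
Snhg1: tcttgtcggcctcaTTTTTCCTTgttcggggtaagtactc
Snhg3: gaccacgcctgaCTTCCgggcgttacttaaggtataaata
Snhg5: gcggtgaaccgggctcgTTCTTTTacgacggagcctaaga
The annotated start of Snhg8 and of Snhg12 was followed by 6 pyrimidines without a break, and the second start of Gas5 by 5. At the first start of Gas5, where its gene span begins, the run was 0, and the longest run in the window was 3. Runs of at least 6 from the start occurred at 2.93% of 32851 mouse promoters in the same table, and runs of at least 5 at 4.44%. The run from the start was 3 bases in Snhg1 and 0 in Snhg3 and Snhg5, although Snhg1 and Snhg5 hold runs of 9 and 7 farther in. A run in this window is a description of the letters, since the start used in these cells was not measured. Snhg12, which rose with DFO, and Snhg8, which fell, thus both begin with a run of 6.

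In siControl cells the 8 genes spanned more than 2 orders of magnitude. Malat1 had a mean of 2738 ± 362 FPKM (SD, n = 3) and ranked as number 21 of all genes. Neat1 followed at 540.5 ± 48.1 FPKM, rank 130. Gas5, at 98.9 ± 7.44, and Snhg1, at 64.8 ± 10.1 FPKM, led the hosts. Snhg8 stood at 41.7 ± 1.26, Snhg5 at 30.2 ± 0.935, Snhg12 at 24.8 ± 3.08 and Snhg3 at 15.5 ± 3.97 FPKM. No neighbours in this order overlapped in their replicate values. In siNCOA4 cells Gas5 overlapped Snhg1, and Snhg5 overlapped Snhg12. With DFO in siControl cells, Snhg1 became the highest host at 407 FPKM and Snhg12, at 93.7, overlapped Gas5, at 84.6 FPKM.

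**Figure D1:**
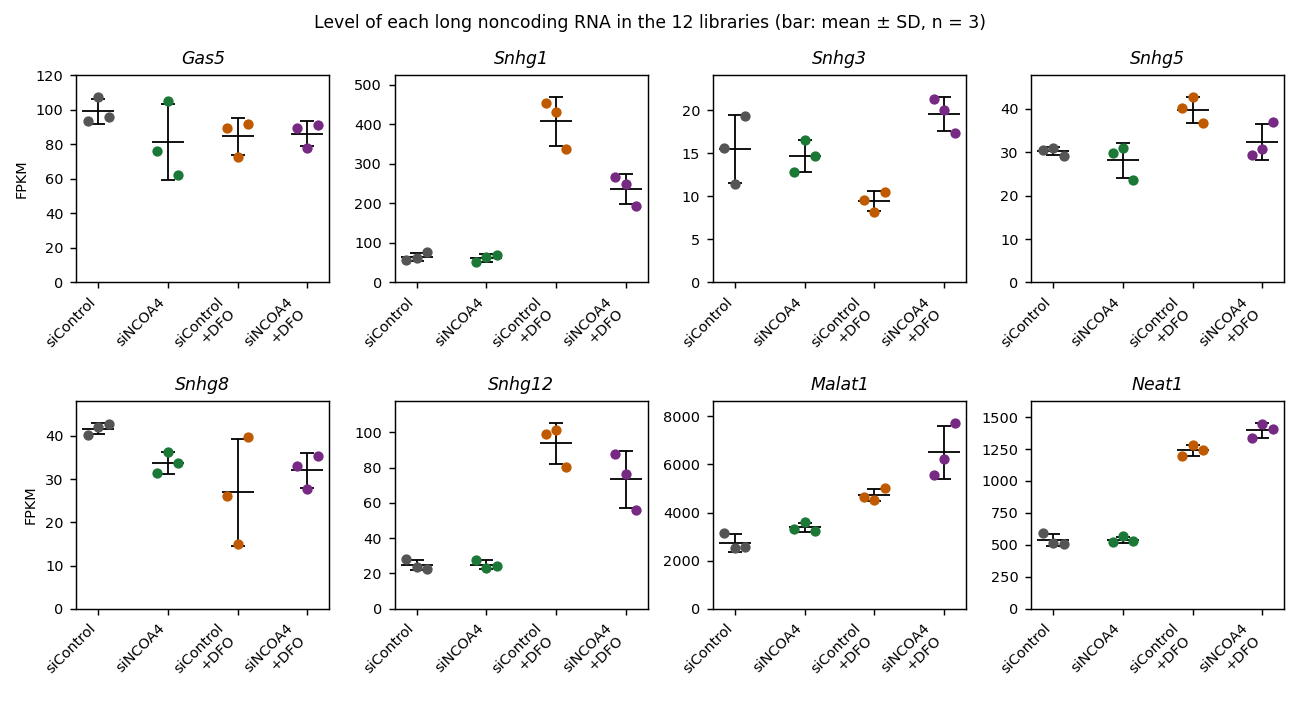
FPKM (vertical axis, linear, from 0) of the 8 long noncoding RNAs in the 12 libraries; points are replicates and bars the mean ± SD of 3. Snhg1, Snhg12, Malat1 and Neat1 are higher in every DFO-treated library than in every untreated one, and Snhg3 is lowest in DFO-treated siControl cells.

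The first comparison asked what iron chelation did to these RNAs in cells with NCOA4. DFO raised Snhg1 6.27-fold and Snhg12 3.76-fold, Neat1 2.30-fold and Malat1 1.74-fold, and lowered Snhg3 and Snhg8 to 0.623 and 0.600 of their levels. Gas5, the most abundant host, did not pass the test. Log2(FPKM + 0.1) was compared with limma over all 12 libraries, for the 11924 genes with at least 0.5 FPKM in at least 3 libraries, and a gene was called at a Benjamini-Hochberg adjusted p below 0.05. Of the 8 genes, 5 were called higher and 2 lower, where 27.7% of all genes tested were called higher and 25.7% lower. Among them, 3 also changed more than 2-fold, where 18.8% of all genes did in either direction. The median log2 change of the 8 was 0.59, against -0.011 for all genes. The members were chosen with earlier results of these data known, so these counts and the median only describe them.

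Snhg1, the host of Snord22 and of snoRNAs of the Snord25 to Snord31 series, read 56.2, 62.3 and 76.0 FPKM in siControl and 454, 431 and 337 FPKM in DFO-treated siControl cells. The lowest DFO library was more than 4 times the highest control library. The log2 change was 2.65 ± 0.16 (SE; 95% interval 2.30 to 3.00; adjusted p = 8.4e-08). Snhg12, which hosts 4 snoRNAs on chromosome 4, read 28.3, 23.6 and 22.6 FPKM without and 99.1, 102 and 80.5 FPKM with DFO. Again the groups were far apart, with a log2 change of 1.91 ± 0.16 (1.57 to 2.25; adjusted p = 9.3e-07). Replicate 3 was the lowest of the DFO-treated siControl libraries for both RNAs.

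Snhg5 moved in the same direction by less. It read 30.6, 30.9 and 29.2 FPKM in siControl and 40.1, 42.6 and 36.7 FPKM with DFO, without overlap. Its log2 change was 0.39 ± 0.12 (0.14 to 0.64; adjusted p = 0.0126). The call was lost without DFO-treated siControl replicate 2, where the adjusted p was 0.0503 for a change of 0.34, and with quantile normalization, where it was 0.0965.

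The hosts that fell were Snhg3 and Snhg8. Snhg3, the host of the Snora73 pair, read 15.7, 11.5 and 19.4 FPKM in siControl and 9.63, 8.19 and 10.5 FPKM with DFO. The 3 DFO libraries were all below the lowest control, and the log2 change was -0.68 ± 0.18 (-1.06 to -0.30; adjusted p = 0.00581). Snhg8, a short gene that hosts Snora24, read 40.3, 42.1 and 42.7 FPKM in siControl but 26.0, 15.02 and 39.8 FPKM with DFO. Its controls agreed closely while its DFO libraries spread widely. The log2 change of -0.74 ± 0.25 (adjusted p = 0.0257) became -0.37 (adjusted p = 0.0755) without DFO-treated siControl replicate 2. The call was also lost without siControl replicate 2 (adjusted p = 0.0595) or replicate 3 (0.0615) and when only the compared groups were fitted (0.0791). Gas5 read 93.6, 107 and 95.8 FPKM in siControl and 89.5, 72.5 and 91.9 FPKM with DFO. The groups did not overlap, yet the difference of -0.23 on the log2 scale had a 95% interval of -0.58 to 0.12 (adjusted p = 0.242).

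Both nuclear RNAs rose. Neat1 read 596, 515 and 510.1 FPKM in siControl and 1197, 1281 and 1239 FPKM with DFO. This change had the smallest error of the 8, with a log2 difference of 1.20 ± 0.093 (1.00 to 1.40; adjusted p = 6.2e-07). Malat1 read 3156, 2507 and 2552 FPKM without and 4627, 4540.1 and 5031 FPKM with DFO. Every treated library was higher, and the log2 change was 0.80 ± 0.18 (0.41 to 1.18; adjusted p = 0.0023). Quantile normalization brought the change of Malat1 to 0.35 (adjusted p = 0.141).

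**Figure D2:**
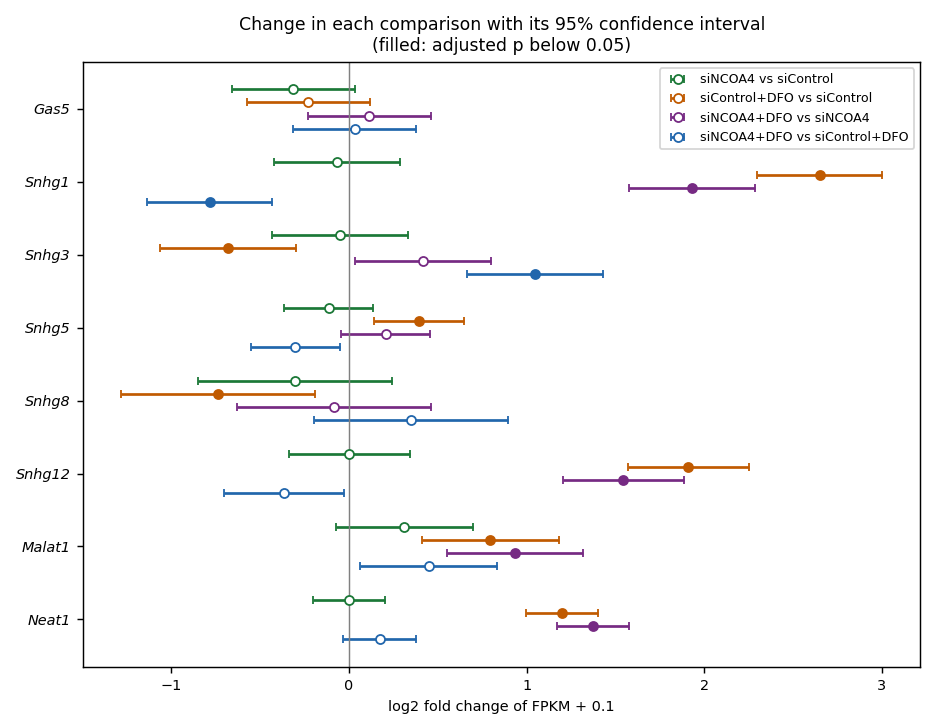
Log2 fold change of FPKM + 0.1 (horizontal axis) with its 95% confidence interval for each of the 8 RNAs (vertical axis) in 4 comparisons, filled where the adjusted p was below 0.05. Changes with DFO are filled for Snhg1, Snhg12, Malat1 and Neat1 in both siRNA backgrounds, and no change with siNCOA4 alone is filled.

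The second comparison asked what loss of NCOA4 did when iron was not chelated. No member was called, with 0 higher and 0 lower by limma and 0 at an unadjusted p below 0.05, where 4.52% of all genes were called higher, 7.21% lower and 1.78% with a change above 2-fold. The median change of the 8 was -0.059, against 0.0048 for all genes. Snhg1 read 51.4, 64.8 and 69.5 FPKM in siNCOA4 cells, among its control values, with a 95% interval of the log2 change of -0.42 to 0.29. Snhg12 read 27.7, 22.8 and 24.0 FPKM (-0.34 to 0.34) and Neat1 read 519.7, 567 and 531 FPKM (-0.20 to 0.20). The interval was narrowest for Neat1 and excluded a change of the size seen with DFO for each of these RNAs.

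The other members left more room. Malat1 read 3307, 3603 and 3239 FPKM, all above the 3 controls, with a log2 difference of 0.31 ± 0.18 (-0.072 to 0.70; adjusted p = 0.290). Snhg8 read 31.3, 36.3 and 33.7 FPKM, all below the controls, with a difference of -0.30 ± 0.25 (adjusted p = 0.486), where the spread shared with the DFO libraries entered the error. When siControl and siNCOA4 were fitted alone, the adjusted p of Snhg8 was 0.0483. Gas5 read 76.3, 105 and 62.4 FPKM, with a difference of -0.32 ± 0.16 (adjusted p = 0.234). Without siNCOA4 replicate 2, the library at 105 FPKM, the difference of Gas5 was -0.52 (adjusted p = 0.0363). Snhg3 (12.8, 16.6 and 14.7 FPKM) and Snhg5 (29.8, 31.0 and 23.5 FPKM) overlapped their controls.

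The third set of comparisons asked how the RNAs stood when Ncoa4 siRNA and DFO were combined. The paper reports altered morphology and lower viability of HT22 cells with this combination, while either treatment alone left viability unchanged. The part of this in the values was not tested. The same 4 RNAs that rose most with DFO alone, Snhg1, Snhg12, Malat1 and Neat1, were called higher in DFO-treated siNCOA4 cells, both against siControl and against siNCOA4 cells. The comparisons with siControl share its 3 libraries. Against siControl, 4 members were called higher and 0 lower, where 25.4% of all genes were called higher and 23.4% lower. All 4 changed more than 2-fold, where 15.2% of all genes did. With quantile normalization the log2 change of Malat1 against siControl was 0.60 (adjusted p = 0.0202) in place of 1.24, which is below 2-fold. Against siNCOA4, 4 were called higher and 0 lower, where 23.1% of all genes were higher and 19.6% lower, and 3 exceeded 2-fold, where 11.4% did. Against siNCOA4, Snhg1 changed 3.81-fold, Snhg12 2.91-fold, Neat1 2.59-fold and Malat1 1.91-fold. Quantile normalization brought the log2 change of Malat1 against siNCOA4 from 0.93 to 0.24 and ended the call (adjusted p = 0.3302).

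Neat1 and Malat1 reached their highest values here. Neat1 read 1333, 1444 and 1409.8 FPKM, and Malat1 read 5578, 6232 and 7717 FPKM. All 3 libraries of each lay above those of DFO-treated siControl cells, but the differences did not pass the test. They were 0.17 ± 0.093 on the log2 scale for Neat1 (-0.031 to 0.38; adjusted p = 0.229) and 0.45 ± 0.18 for Malat1 (0.064 to 0.83; adjusted p = 0.102). For Malat1 the adjusted p was 0.0350 with robust moderation, 0.0494 without the trend and 0.0474 after scaling to an equal sum outside small RNA genes. The difference between the DFO effects of the 2 siRNA backgrounds was 0.14 for Malat1 (-0.41 to 0.68) and 0.17 for Neat1 (-0.12 to 0.46).

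Snhg1 and Snhg3 moved in opposite directions when the DFO-treated cells were compared with each other. In this comparison 1 member was called higher and 1 lower, where 6.22% of all genes were higher and 10.2% lower, and 1 exceeded 2-fold, where 2.09% did. Snhg1 read 266, 250.1 and 194 FPKM in DFO-treated siNCOA4 cells, all below the 337 to 454 FPKM of DFO-treated siControl cells. The log2 difference was -0.79 ± 0.16 (-1.14 to -0.43; adjusted p = 0.00707). Snhg12 read 87.9, 76.6 and 56.1 FPKM and overlapped its DFO-treated controls, with a difference of -0.37 ± 0.16 (adjusted p = 0.128). In DFO-treated siNCOA4 cells replicate 3 was the lowest library for Snhg1 and Snhg12 and the highest for Malat1, and it had the lowest relative depth, 0.928 of that of siControl replicate 1. Without it the log2 difference of Snhg1 stayed called, as it did without each other library in turn (-0.92 to -0.65).

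Snhg3 read 21.3, 20.0 and 17.4 FPKM in DFO-treated siNCOA4 cells, against 8.19 to 10.5 in DFO-treated siControl cells. It was thus about 2 times as high (log2 difference 1.05 ± 0.18, 0.66 to 1.43; adjusted p = 0.00243). All 3 libraries were also above those of siNCOA4 without DFO (12.8 to 16.6 FPKM), although that difference, 0.41 ± 0.18, did not pass the test (adjusted p = 0.0754). It was called when only the compared groups were fitted (adjusted p = 0.0339) and without siControl replicate 2 (0.0319) or replicate 3 (0.0437). DFO therefore went with lower Snhg3 in every library of siControl cells and with higher Snhg3 in every library of siNCOA4 cells. The test of that difference, the interaction, gave 1.10 ± 0.25 on the log2 scale (0.56 to 1.64; adjusted p = 0.0432). For the interaction 1 member was called higher and 0 lower, where 0.671% of all genes were called higher and 1.43% lower. The adjusted p lay close to the threshold, and leaving out any 1 library other than siControl replicate 2 raised it to between 0.0529 and 0.0943. Against siControl, Snhg3 in DFO-treated siNCOA4 cells overlapped, with a log2 difference of 0.36 ± 0.18 (adjusted p = 0.105). Some alternative fits called that difference, with an adjusted p as low as 0.0216. For Snhg1 the interaction was -0.72 ± 0.23 (-1.22 to -0.22; adjusted p = 0.121).

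Snhg5 and Snhg8 stood between their other groups in DFO-treated siNCOA4 cells. Snhg5 read 29.3, 30.7 and 37.0 FPKM and Snhg8 read 33.1, 27.6 and 35.3 FPKM. Against siControl, the log2 difference of Snhg5 was 0.090 ± 0.12 (adjusted p = 0.543). That of Snhg8 was -0.39 ± 0.25 (adjusted p = 0.220), and it became called without DFO-treated siControl replicate 2 (adjusted p = 0.0426). An alternative fit other than leaving out a library also called it (adjusted p = 0.0205). Gas5 read 89.5, 78.1 and 90.9 FPKM. No comparison called Gas5.

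The next question was whether the snoRNAs inside the hosts moved with the host RNA. RefSeq places 25 snoRNA genes in the 6 hosts, and 7 of them are in the tables: Snord47 in Gas5, Snord22 in Snhg1, Snora24 in Snhg8, and Snora16a, Snora44, Snora61 and Snord99 in Snhg12. None of those of Snhg3 or Snhg5 is among them. The sequences of 5 of them, those above 0 in all libraries, are shown to make plain how short they are beside their hosts. FPKM divides by this length, so each fragment of a snoRNA counts for more than a fragment of its host. Each is the whole snoRNA by GENCODE, on its own strand. Capitals mark the C box and D box of the box C/D class (methylation guides), or the terminal ACA of the H/ACA class (pseudouridylation guides), where the letters were found.
Snord47, chr1:161038082-161038158: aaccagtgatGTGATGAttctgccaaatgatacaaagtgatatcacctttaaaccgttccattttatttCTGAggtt
Snord22, chr19:8725866-8725991: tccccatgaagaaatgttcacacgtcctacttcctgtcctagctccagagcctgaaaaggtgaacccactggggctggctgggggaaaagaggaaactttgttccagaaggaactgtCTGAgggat
Snora24, chr3:123507937-123508066: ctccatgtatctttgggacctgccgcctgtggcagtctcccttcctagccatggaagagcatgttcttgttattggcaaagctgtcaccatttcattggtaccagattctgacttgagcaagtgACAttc
Snora16a, chr4:132309464-132309600: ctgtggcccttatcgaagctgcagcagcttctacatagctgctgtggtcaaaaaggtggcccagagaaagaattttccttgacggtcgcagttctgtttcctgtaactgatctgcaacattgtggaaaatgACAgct
Snora44, chr4:132309941-132310069: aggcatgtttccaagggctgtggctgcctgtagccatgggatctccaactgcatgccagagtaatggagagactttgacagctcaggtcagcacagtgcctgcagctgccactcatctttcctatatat
They are 77 to 137 bases long, while the host genes span 785 to 3939 bases, introns included. The summed exon length of a host, by which FPKM divide, is not given here.

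With DFO in siControl cells, the values of host RNA and snoRNA parted. By GENCODE, some host transcripts hold the snoRNA in an exon: 4 for Snord22, 2 each for Snora16a and Snora44, and 1 each for Snora24 and Snord47. Fragments of host and snoRNA may thus not be fully separated, and the part of this in the values was not tested. Snord22, of Snhg1, read 20326, 16123 and 16849 FPKM in siControl and 24677, 19948 and 21837 FPKM with DFO. These ranges overlapped, and the log2 change of 0.32 ± 0.30 (-0.34 to 0.98; adjusted p = 0.398) lay far below the 2.65 of its host. Snhg1 amounted to 0.371 ± 0.0881% of the FPKM of Snord22 in siControl and to 1.85 ± 0.310% with DFO. The 2 snoRNAs of Snhg12 that were above 0 throughout differed from their host in the same way. Snora16a changed by 0.17 ± 0.19 (-0.24 to 0.58; adjusted p = 0.467) and Snora44 by 0.20 ± 0.26 (-0.37 to 0.77; adjusted p = 0.551), against 1.91 for Snhg12. Snora24, of Snhg8, read 3350.0, 2447 and 2367 FPKM without and 3550, 3355 and 3939 FPKM with DFO. It was higher in every DFO library while its host fell, at a log2 difference of 0.42 ± 0.18 (0.032 to 0.82; adjusted p = 0.0644). Of the 7 snoRNAs, 0 were called in this comparison by limma, and 1, Snora24, had an unadjusted p below 0.05.

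**Figure D3:**
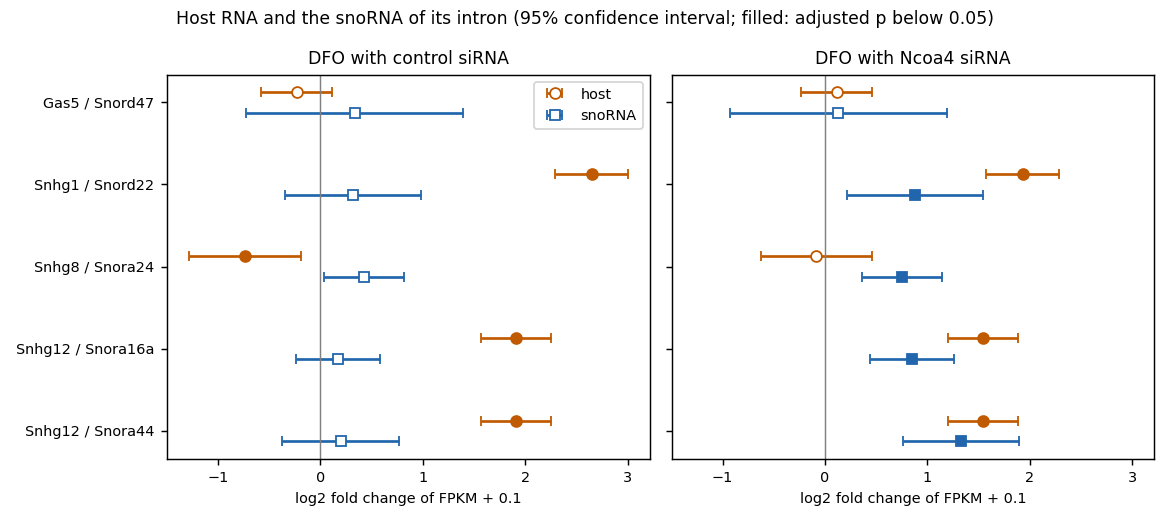
Log2 fold change of FPKM + 0.1 (horizontal axis) with its 95% confidence interval for a host RNA (circle) and a snoRNA of its intron (square), for DFO with control siRNA (left) and with Ncoa4 siRNA (right), filled where the adjusted p was below 0.05. On the left the intervals of Snhg1 and Snhg12 lie clear of those of their snoRNAs, and on the right 4 snoRNAs are also higher.

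In siNCOA4 cells 4 of the 7 snoRNAs were called higher with DFO and 0 lower, where 23.1% of all genes were called higher and 19.6% lower. Snora44 rose by 1.33 ± 0.26 on the log2 scale (adjusted p = 0.0014), Snord22 by 0.88 ± 0.30 (adjusted p = 0.0338), Snora16a by 0.85 ± 0.19 (adjusted p = 0.0032) and Snora24 by 0.75 ± 0.18 (adjusted p = 0.0049). Snord22 read 11155, 14117 and 13024 FPKM in siNCOA4 and 22549, 21752 and 26141 FPKM in DFO-treated siNCOA4 cells, without overlap. With siNCOA4 alone these 4 were lower than in siControl without a call (limma adjusted p 0.114 to 0.352). The log2 changes were -0.48 for Snord22, -0.50 for Snora16a, -0.45 for Snora44 and -0.32 for Snora24. In DFO-treated siNCOA4 against siControl cells, Snora44 was called higher (0.88 ± 0.26, limma adjusted p = 0.0143). Snord22 (adjusted p = 0.292), Snora16a (0.147) and Snora24 (0.0659) were not. The share of small RNAs in the summed FPKM was also highest in DFO-treated siNCOA4 cells, and its part in these values was not tested. The interaction was not called for any of the 7, with adjusted p of 0.129 for Snora44 and 0.203 for Snora16a, so a difference between the siRNA backgrounds was not shown. Snord47 ranged from 1172 to 4784 FPKM within siNCOA4 alone and gave no call. Snora61 was listed at 0 in 6 of 12 libraries and Snord99 in 1, so no fold change is given for them.

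Some neighbours of these genes moved with them. Coding genes within 10000 bases were found by RefSeq for Gas5, Snhg1, Snhg3, Snhg12 and Neat1. Slc3a2, which encodes the heavy chain of amino acid transporters at the cell surface, lies 117 bases from Snhg1 on the other strand, so the genes diverge from a shared stretch. Slc3a2 read 74.4, 71.1 and 71.7 FPKM in siControl and 208, 259 and 245 FPKM with DFO. All 3 treated libraries were far above the controls, with a log2 change of 1.70 ± 0.13 (adjusted p = 6.5e-07) beside the 2.65 of Snhg1. Across the 12 libraries the log2 values of both correlated with r = 0.971, a description over libraries that share their treatment. Unlike Snhg1, Slc3a2 overlapped between the DFO-treated groups (223, 222 and 151 FPKM with siNCOA4; log2 difference -0.27 ± 0.13, adjusted p = 0.181). The stretch between their annotated starts is shown because it lies at the start of both. It is given on the plus strand, with GCGTG and ACGTG, the core letters of the hypoxia response element, in capitals on either strand.
chr19:8723370-8723486: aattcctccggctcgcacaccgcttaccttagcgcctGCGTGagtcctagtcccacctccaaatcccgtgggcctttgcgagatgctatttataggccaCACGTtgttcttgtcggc
On either strand, ACGTG occurred in 19.6% and GCGTG in 32.4% of the 32851 promoters, taken as 250 bases before and 50 after the start. Of the 7 members with a promoter in the table, ACGTG was found for Snhg1, Snhg5 and Malat1, and GCGTG for Gas5 (second start), Snhg1, Snhg3, Snhg5 and Snhg8. Both Snhg3 and Snhg8, which fell with DFO, and Snhg1, which rose, thus held GCGTG, while Snhg12 held neither. CACGTG and TGATGNAA, present in 7.15% and 3.97% of promoters, were found in none of the 7. Neat1 had no entry in the promoter table.

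Frmd8, 5493 bases from Neat1, read 9.41, 7.07 and 10.9 FPKM in siControl and 21.5, 22.7 and 19.6 FPKM with DFO. It rose 2.35-fold (log2 change 1.23 ± 0.20, adjusted p = 2.5e-04), close to the 2.30-fold of Neat1. Other neighbours did not follow. Wdr74, 9468 bases from Snhg1, changed by 0.26 ± 0.17 (adjusted p = 0.210). Trnau1ap, 738 bases from Snhg12, changed by -0.25 ± 0.15 (adjusted p = 0.186) while Snhg12 rose. Rcc1, 6182 bases from Snhg3 on the same strand, rose by 0.25 ± 0.093 (adjusted p = 0.0386) while Snhg3 fell, and Phactr4 changed by -0.054 ± 0.097 (adjusted p = 0.665). In the GENCODE annotation Snhg3 overlaps Rcc1 on 1 strand, so fragments of both may not be fully separated. Rab42 was listed at 0 in 3 libraries and reached at most 2.38 FPKM.

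Gas5 overlaps Zbtb37, a zinc finger gene, on the other strand. Zbtb37 fell by 0.58 ± 0.20 on the log2 scale with DFO (adjusted p = 0.0248), although its replicate ranges overlapped. Gas5 itself was at 98.9 FPKM in siControl, against 7.05 FPKM for Zbtb37. The library kit keeps the strand, but whether the counting used it is not given in the sources used here.

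**Figure D4:**
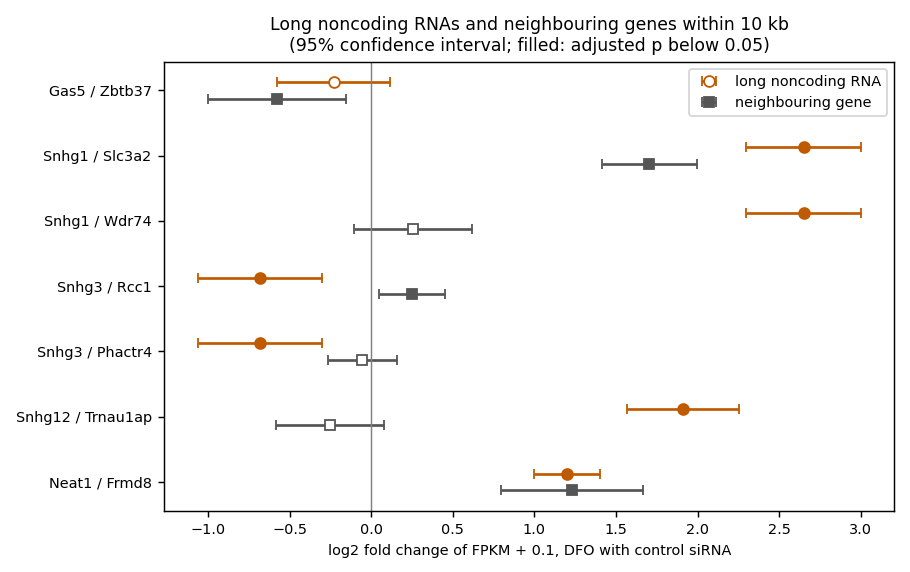
Log2 fold change of FPKM + 0.1 with DFO in siControl cells (horizontal axis), with its 95% confidence interval, for a long noncoding RNA (circle) and a coding gene within 10000 bases (square), filled where the adjusted p was below 0.05. Slc3a2 and Frmd8 rise with Snhg1 and Neat1, whereas Wdr74, Phactr4 and Trnau1ap are not filled.

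Among themselves the members fell into patterns. Over the 12 libraries, the log2 values of Snhg1 and Snhg12 correlated with r = 0.972, Snhg12 and Neat1 with 0.947, and Malat1 and Neat1 with 0.920. Snhg12 and Snhg3, which share a stretch of chromosome 4, had an r of -0.283. Gas5 had its highest r, 0.553, with Snhg8. These values describe libraries that share treatments and are given without a test. The genes most like Snhg1, among those with a mean of at least 1 FPKM, were Txnip (r = 0.995), a stress-induced inhibitor of thioredoxin, and Bbc3 (0.993), the pro-apoptotic protein PUMA. For Snhg12 they were Carhsp1 (0.996) and Ulk1 (0.994), the kinase that starts autophagy. For Neat1 they were Gtpbp2 (0.990) and Ktn1 (0.989), and for Malat1 Diap2 (0.985) and Atm (0.981), the kinase of the DNA damage response. The nearest genes were less close for Snhg5 (Jak2, 0.924), Snhg8 (Nit2, 0.924), Snhg3 (Ube4a, 0.858) and Gas5 (Vamp7, 0.801).

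Of 17 other genes listed as noncoding hosts 9 could be tested, among them Rnu12, which was also counted among the genes of small RNAs. With DFO in siControl cells 2 of the 9 were called higher and 2 lower, with a median log2 change of -0.034. Of all genes 27.7% were higher and 25.7% lower in this comparison, and the shares of these hosts were close to that. Snhg17 went from 5.44 ± 0.677 to 11.01 ± 0.972 FPKM (adjusted p = 4.0e-04) and Snhg6 from 14.0 ± 4.12 to 27.1 ± 3.02 FPKM (adjusted p = 0.0065). Snhg18 went the other way, from 14.2 ± 1.20 to 5.99 ± 0.754 FPKM (adjusted p = 1.8e-05). Hosts both rose and fell among the members as well, with Snhg1, Snhg12 and Snhg5 higher and Snhg3 and Snhg8 lower.

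Of 15 other long noncoding RNAs tested, mostly nuclear ones, 3 rose and 3 fell with DFO, no larger a share than among all genes (27.7% higher and 25.7% lower). Pvt1, next to the Myc gene, rose from 8.61 ± 0.764 to 37.7 ± 1.56 FPKM (adjusted p = 2.2e-08). Trp53cor1 (lincRNA-p21), a p53 target, rose from 0.301 ± 0.187 to 2.49 ± 0.625 FPKM (adjusted p = 1.1e-04), and imprinted Peg13 fell from 1.25 ± 0.412 to 0.385 ± 0.114 FPKM (adjusted p = 0.0085). With siNCOA4 alone, where no member was called and 4.52% of all genes were higher and 7.21% lower, Tug1 rose from 26.4 ± 0.786 to 35.6 ± 2.32 FPKM (adjusted p = 0.0070) and 2900097C17Rik fell from 35.9 ± 3.20 to 20.2 ± 1.02 FPKM (adjusted p = 1.1e-04).

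Of 17 proteins of snoRNPs and their assembly, 6 rose and 5 fell with DFO, near the 27.7% higher and 25.7% lower of all genes. Nop58, a core protein of box C/D particles, rose from 101 ± 3.76 to 169 ± 20.3 FPKM (adjusted p = 3.7e-05) and the assembly factor Nufip1 from 4.07 ± 0.390 to 7.41 ± 0.698 FPKM (adjusted p = 3.5e-04), while Shq1, an assembly factor of H/ACA particles, fell from 3.47 ± 0.491 to 2.00 ± 0.247 FPKM (adjusted p = 0.0053). Of 19 factors of nonsense-mediated decay, 9 rose and 3 fell beside the same shares of all genes, with a median log2 change of 0.30 against -0.011 for all genes. Smg1, the kinase of the pathway, rose from 30.6 ± 3.63 to 61.8 ± 2.01 FPKM (adjusted p = 7.8e-07), Smg9 from 8.21 ± 1.07 to 13.9 ± 0.932 FPKM (adjusted p = 1.3e-04) and Upf3b from 12.9 ± 1.89 to 20.2 ± 2.57 FPKM (adjusted p = 6.3e-04). Of these 19 factors 6 fell and 0 rose when siNCOA4 was compared with siControl under DFO, where 10.2% of all genes were lower and 6.22% higher. Scaling to an equal FPKM sum outside small RNA genes turned the calls over all genes in this comparison from 742 higher and 1221 lower to 1369 higher and 710 lower, and those of the 19 factors to 3 lower and 1 higher.

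Of 20 paraspeckle proteins, the partners of Neat1, 6 rose and 5 fell with DFO, near the shares of all genes (27.7% higher and 25.7% lower). Pspc1, a core paraspeckle protein, rose from 29.1 ± 2.41 to 47.4 ± 1.92 FPKM (adjusted p = 4.1e-05) and Taf15 from 106 ± 4.07 to 191 ± 5.25 FPKM (adjusted p = 3.3e-07). Sfpq, another core protein, fell with siNCOA4 alone, from 275 ± 25.4 to 231 ± 4.38 FPKM (adjusted p = 0.0460). Of 20 speckle and Malat1-binding splicing proteins, 6 rose, near the share of all genes, and 2 fell with DFO, among them Srsf11, from 53.3 ± 6.03 to 87.3 ± 0.945 FPKM (adjusted p = 2.4e-05), and Srsf1, from 94.1 ± 2.63 to 67.2 ± 4.05 FPKM (adjusted p = 1.5e-04).

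Of 21 coding genes tested whose mRNAs begin with a terminal pyrimidine run, ribosomal proteins left out, 0 rose and 7 fell with DFO in siControl cells, where 25.7% of all genes were lower and 27.7% higher. Their median log2 change was -0.13, against -0.011 for all genes. In DFO-treated siNCOA4 against siControl cells 0 rose and 12 fell, where 23.4% of all genes were lower and 25.4% higher. With an equal FPKM sum outside small RNA genes 8 fell, where 2230 of 11924 genes were lower and 3590 higher. Eif4b, a translation initiation factor, read 325 ± 9.90 FPKM in siControl and 207 ± 2.71 FPKM with DFO (adjusted p = 3.4e-06). With siNCOA4 alone 6 of the 21 fell and 0 rose, where 7.21% of all genes were lower and 4.52% higher. The fit with an equal FPKM sum outside small RNA genes called 2, where 544 of 11924 genes were lower and 1010 higher. Targets of hypoxia-inducible factor served as a check of the chelator, and 9 of 10 rose and 0 fell with DFO, where 27.7% of all genes rose, led by Ndrg1, from 38.1 ± 4.22 to 339 ± 12.5 FPKM (adjusted p = 1.2e-08). Of 11 p53 targets, 11 rose with DFO, and Cdkn1a went from 15.03 ± 1.98 to 445 ± 19.2 FPKM (adjusted p = 6.5e-10). With siNCOA4 alone 5 of these 11 rose and 0 fell, where 4.52% of all genes were higher and 7.21% lower. Cdkn1a went to 53.2 ± 2.89 FPKM (adjusted p = 2.5e-05), while 0 of the 8 noncoding RNAs were called. Of the 10 hypoxia targets, 0 rose and 4 fell with siNCOA4 alone.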

How the data were processed

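The submitters' processing notes name Trimmomatic 0.33, FastQC, HISAT2 2.1.0, featureCounts, edgeR and the genome build mm10. Libraries were made from total RNA with a kit that keeps the strand. The deposited values are FPKM, computed by the authors, 1 table of 24347 gene entries per library; the 4 entries sharing a name were left out, and 6929 of 24343 genes were at 0 throughout. Depth per library is not given by FPKM, so no counting interval can be stated.

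Log2(FPKM + 0.1) was fitted with limma 3.58.1 (R 4.3.3) as a means model over all 12 libraries for genes with at least 0.5 FPKM in at least 3 libraries, with a mean-variance trend, and p-values were adjusted by Benjamini-Hochberg over 11924 genes in each of 6 comparisons. A count model was not used because the values are not counts. The fit was run on simulated data and did not recover every changed gene. A gene without a call can thus still have changed. The pseudocount understates changes of low genes. Groups came from the sample labels. The members and the gene lists were chosen with earlier results of these data known.

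The text names all 8 members, Ncoa4, the listed snoRNAs of member hosts, up to 3 called genes with the largest change per list in the DFO and siNCOA4 comparisons, the 2 genes most correlated with each member and coding genes within 10000 bases, of which 1 is not reported here. Some of these are given by count only. Sequences were read from RefSeq tables of GRCm38.p6, the files' build, with GENCODE vM21 for strand, transcripts and the snoRNA sequences. Same-numbered replicates did not deviate together (r from -0.127 to 0.116, median -0.012; 2 of 18 pairs above 0.1), so the numbers were not used as a block. Alternatives were other pseudocounts (1 and 0.01), filters (none, or FPKM of at least 2), scalings, moderation, fits and calls, and leaving out each library. Figures were drawn with matplotlib 3.10.9 in Python 3.11.15.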

Additional observations from a re-analysis of the deposited data

Results flagged for a closer look

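Snhg3 differed in its change with DFO between the siRNA backgrounds. Every DFO-treated siControl library was below every siControl library, and every DFO-treated siNCOA4 library was above every siNCOA4 library, although that difference in siNCOA4 cells did not pass the test (log2 change 0.41, limma adjusted p = 0.0754). The interaction was 1.10 on the log2 scale (SE 0.25, limma adjusted p = 0.0432). It kept its call in 1 of the 12 fits that left out a library and in 6 of 10 other alternatives. Snhg3 was the only one of the 8 members whose interaction passed the threshold.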

How the results depend on the processing

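Alternatives were run for the 8 members in all 6 comparisons. The interaction call of Snhg3 was the least stable: 0 members were called with no filter on low values, with quantile normalization, with the replicate block and without the trend (adjusted p of Snhg3 0.0589 to 0.0798), and leaving out 1 library gave 0 to 1. With siNCOA4 alone, 1 member (Snhg8) was called when only the compared groups were fitted, and leaving out 1 library gave 0 to 1. Requiring a change above 2-fold left 3 of 7 calls with DFO and 1 of 2 between the DFO-treated groups. Leaving out 1 library gave 5 to 7 calls with DFO, 4 to 5 in DFO-treated siNCOA4 against siControl and against siNCOA4, and 2 to 3 between the DFO-treated groups.

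With siNCOA4 alone several changes near 0 turned direction without being called: Neat1 to 0.0011 with median-of-ratios scaling, 0.15 with quantile normalization and 0.096 with an equal FPKM sum outside small RNA genes, the last of which also gave 0.030 for Snhg1 and 0.045 for Snhg3. The interaction of Malat1 was -0.11 and that of Neat1 -0.097 with quantile normalization. Leaving out 1 library turned uncalled changes as well. With siNCOA4 alone the ranges were -0.16 to 0.061 for Snhg1, -0.25 to 0.13 for Snhg3, -0.19 to 0.0079 for Snhg5, -0.078 to 0.10 for Snhg12 and -0.040 to 0.072 for Neat1. They were -0.0099 to 0.16 for Snhg5 in DFO-treated siNCOA4 against siControl, -0.077 to 0.0998 for Gas5 and -0.015 to 0.68 for Snhg8 between the DFO-treated groups, and -0.059 to 0.32 for Gas5 and -0.16 to 0.019 for Snhg8 against siNCOA4. The cause was not tested.

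Over all genes, the equal sum outside small RNA genes moved the median log2 change by about 0.1 with siNCOA4 (0.0997; between DFO-treated groups 0.111; both treatments 0.105). Higher and lower calls became 1010 and 544 with siNCOA4 (539 and 860 otherwise), 1369 and 710 between the DFO-treated groups (742 and 1221) and 3590 and 2230 for both treatments (3029 and 2790). Quantile normalization gave 858 and 839 between the DFO-treated groups, and a fit of those groups alone 331 and 818. The interaction had 80 and 170 calls, but 43 and 128 with the replicate block, 51 and 113 without the trend, 58 and 107 with quantile normalization and 50 and 134 with no filter. The block otherwise changed 1 member call, Snhg12 between the DFO-treated groups (adjusted p = 0.0449).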
